A study of Homo sapiens with 2 samples.

Results

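The 10 genes described here encode the alpha and beta tubulins TUBA1A, TUBA1B, TUBA1C, TUBA4A, TUBB, TUBB2A, TUBB2B, TUBB3, TUBB4B and TUBB6. They were taken by gene symbol, from a list chosen with earlier results of these data known. All 10 had a row among the 57158 gene identifiers measured. RNA came from liver progenitors grown from CyT49, a human embryonic stem cell line. Definitive endoderm of day 2 received 50 ng/ml BMP4 and 10 ng/ml FGF2 in RPMI medium with 0.2% FBS, in suspension for 6 days, and the libraries are named for day 8. Both libraries belong to this 1 group of 1 line and are titled replicates, with nothing on whether they were separate cultures. The series as given here has no untreated, earlier or other tissue sample, so the levels are described within this culture and no change was measured.

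Levels are given in RPKM, a read number divided by gene length and sequencing depth, and any value under 0.5 is listed as 0.1, called the floor here. The normalization rested on 25182389 reads (library 1) and 25264358 reads (library 2). At that depth, 1 RPKM over 1 kb stood for 25.2 and 25.3 reads. The libraries differed by 1.09 times the variance of counting alone over 766 single-exon genes, and they were counted as 1 sample. All 12 liver progenitor markers examined reached 1 RPKM, beside 59.8% of protein-coding genes. The marker median was 301 RPKM, and the lowest was albumin (ALB) at 6.68.

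Microtubules are hollow polymers of dimers that hold 1 alpha and 1 beta tubulin, and they form the mitotic spindle, the tracks of intracellular transport and the core of cilia. Humans carry several genes for each, called isotypes, whose proteins are closely related and carry an acidic C-terminal tail that reaches out from the microtubule surface and varies among many of them. The tail is where motors, microtubule binding proteins and modifying enzymes act. TUBB3 encodes the class III beta tubulin that is widely used as a marker of neurons, while TUBB, TUBB4B, TUBA1B and TUBA1C are found in most dividing cells.

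The last 60 coding bases of TUBA4A and the 6 beta genes, which encode the tail and the stop codon, are shown to compare this variable end among the genes, from the near identity of TUBB2A and TUBB2B to the distinct TUBB3. They run 5′ to 3′ and were read from the canonical transcript on GRCh37 with GENCODE release 44. Capitals mark bases outside every 15-base stretch that also occurs in another of the 10 coding sequences.
TUBA4A: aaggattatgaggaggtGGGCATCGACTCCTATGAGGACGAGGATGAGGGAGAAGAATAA
TUBB: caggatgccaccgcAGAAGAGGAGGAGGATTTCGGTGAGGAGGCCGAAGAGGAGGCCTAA
TUBB2A: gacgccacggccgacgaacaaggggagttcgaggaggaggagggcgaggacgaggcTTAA
TUBB2B: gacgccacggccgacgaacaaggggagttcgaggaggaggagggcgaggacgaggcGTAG
TUBB3: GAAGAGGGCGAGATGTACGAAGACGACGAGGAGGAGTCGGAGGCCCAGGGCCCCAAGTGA
TUBB4B: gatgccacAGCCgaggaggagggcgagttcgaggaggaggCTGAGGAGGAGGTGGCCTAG
TUBB6: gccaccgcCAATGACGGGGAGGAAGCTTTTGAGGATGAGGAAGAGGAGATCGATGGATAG

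TUBA4A ends in a glutamate codon (gaa), and the last 43 bases of its tail are in capitals. TUBB2A and TUBB2B differ over the tail only at the first and the last of the final 4 bases. By contrast, all 60 bases of TUBB3 are in capitals and its last sense codon encodes lysine. Each tail shown holds 10 or 11 codons for aspartate or glutamate among its 19 sense codons. At the other end of the message, the first 12 coding bases are atgcgtgagtgc in TUBA1A, TUBA1B and TUBA1C and atgcgtgaatgc in TUBA4A. In the beta genes they are atgagggaaatc in TUBB and TUBB4B, atgagggagatc in TUBB3 and TUBB6, atgcgcgagatc in TUBB2A and atgcgtgagatc in TUBB2B. These bases encode the start of the nascent chain that TTC5 recognises when a surplus of free tubulin leads to decay of tubulin mRNA.

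Of the 10 isotypes, 9 reached 1 RPKM in both libraries, beside 59.8% of 19344 protein-coding genes. At 100 RPKM or more stood 5 of the 10, beside 1.30% of protein-coding genes. The median isotype level was 145 RPKM in library 1 and 146 in library 2, against 2.41 and 2.43 RPKM for protein-coding genes. The summed RPKM of the 10 made up 0.879% of the protein-coding total in library 1 and 0.877% in library 2. TUBA4A was the only one of the 10 below the protein-coding median. These values hold for the 10 listed genes and not for the whole family, which has 10 alpha and 9 beta coding genes here. Of those left out, TUBB4A had a mean of 82.6 RPKM and TUBA8 2.15, while TUBA3C, TUBA3D, TUBA3E, TUBAL3 and TUBB1 were at the floor.

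**Figure D1:**
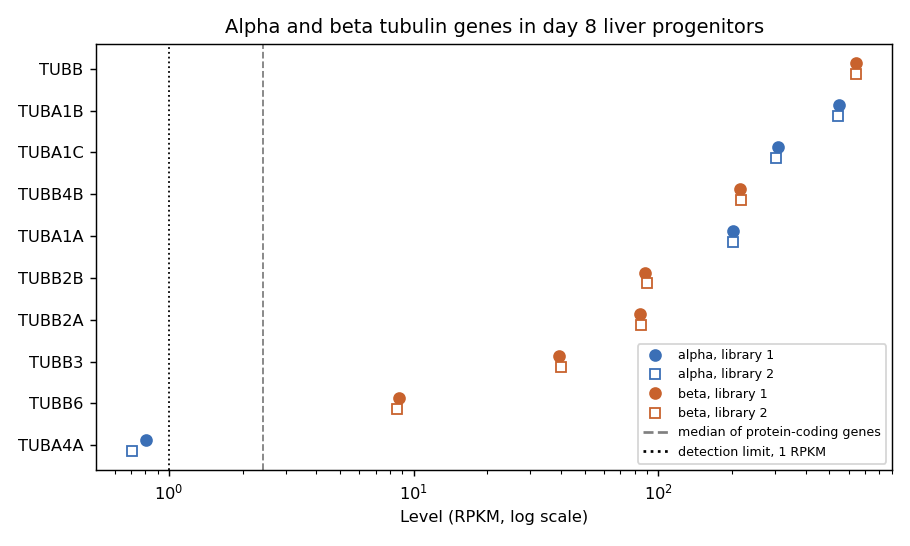
Level of each tubulin gene in RPKM on a log axis, with filled circles for library 1, open squares for library 2, alpha genes in blue and beta genes in orange. The 10 genes run from TUBB at 643 and 644 RPKM to TUBA4A at 0.809 and 0.709, the only one left of the dotted detection limit of 1 RPKM; the dashed line is the protein-coding median.

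Among the alpha genes, TUBA1B, a widely expressed isotype, was the highest, at 548 RPKM in library 1 and 542 in library 2. TUBA1C, the second broadly expressed alpha gene of the same cluster, had 308 and 304 RPKM. TUBA1A, the main alpha isotype of migrating and differentiating neurons, had 202 and 201 RPKM. Alpha tubulin message in these cells was therefore spread over 3 abundant genes whose library ranges did not overlap, and TUBA1B held 51.7% of the alpha sum, TUBA1C 29.0% and TUBA1A 19.2%. TUBA4A, known for its high level in platelets and in muscle and brain, had 0.809 and 0.709 RPKM. Among the 10 genes it alone was under 1 RPKM, and it held 0.0720% of the alpha sum.

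The 3 abundant alpha genes lie together on chromosome 12 of GRCh37. TUBA1B (ENSG00000123416.11) spans 49521565 to 49525180 and TUBA1A (ENSG00000167552.9) 49578469 to 49582863, both on the minus strand. TUBA1C (ENSG00000167553.10) spans 49582519 to 49668383 on the plus strand, so that its annotated start overlaps TUBA1A from the other strand. The antisense RNA TUBA1B-AS1, named after its value was seen, overlaps both TUBA1B and TUBA1A from the plus strand and had 42.6 and 44.5 RPKM. The libraries keep strand, but whether the counting used it is not given in the sources used here, so reads of these overlapping genes may not have been told apart. TUBA4A (ENSG00000127824.9) lies on chromosome 2 from 220114432 to 220142624, on the minus strand. STK16, also named after its value was seen, overlaps TUBA4A from the other strand. It had 5.32 and 5.25 RPKM, above TUBA4A, so the same limit holds there.

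Among the beta genes, TUBB, the constitutive class I isotype, was the highest of all 10 genes, with 643 and 644 RPKM. It ranked 31 among protein-coding genes and held 59.4% of the beta sum. TUBB4B, a class IV isotype of most tissues and of cilia, had 216 and 218 RPKM and held 20.1%. The pair TUBB2B and TUBB2A, class II isotypes best known from the developing and adult brain, had 88.5 and 89.9 RPKM and 84.4 and 85.1 RPKM. TUBB3 had 39.2 RPKM in library 1 and 39.98 in library 2, held 3.66% of the beta sum and lay at the 95.8th percentile of protein-coding genes. TUBB6, the class V isotype, had 8.72 and 8.57 RPKM and was the lowest of the 6 beta genes, at the 76.4th percentile. Beta tubulin message thus came mostly from 1 gene, and the order from TUBB to TUBB6 was the same in both libraries.

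In position, TUBB (ENSG00000196230.8) lies on chromosome 6 from 30685212 to 30693315 on the plus strand, and TUBB2A (ENSG00000137267.5) from 3153731 to 3157778 and TUBB2B (ENSG00000137285.9) from 3223558 to 3231964 lie on its minus strand. TUBB4B (ENSG00000188229.5) lies on chromosome 9 from 140135739 to 140138159, TUBB6 (ENSG00000176014.8) on chromosome 18 from 12307668 to 12344319, and TUBB3 (ENSG00000258947.2) on chromosome 16 from 89987800 to 90005169, all on the plus strand. AFG3L2, named after its value was seen, overlaps TUBB6 from the other strand. It had 9.53 and 9.29 RPKM, above TUBB6, and reads of these genes may not have been told apart either. The canonical transcript of each of the 10 genes has 4 exons.

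Between the libraries, the isotypes differed by 0.192% for TUBB to 12.3% for TUBA4A. For 8 of the 10 the log2 ratio of library 2 over library 1 was smaller than its standard deviation over protein-coding genes within 2 times of the same level. TUBA1B and TUBA1C were the exceptions, both lower in library 2, at 1.07 and 1.06 times that deviation. In the order of levels, no 2 neighbouring isotypes overlapped between the libraries. The closest neighbours were TUBB2B over TUBB2A at 1.05-fold, TUBB4B over TUBA1A at 1.08-fold and TUBB over TUBA1B at 1.18-fold. With nothing on separate cultures, this spread may be technical only, and it allows no test or interval for the order.

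The summed level of the 4 alpha genes was close to that of the 6 beta genes. It was 1060 RPKM for alpha and 1080 for beta in library 1, and 1047 and 1086 in library 2. The ratio of alpha to beta was 0.981 and 0.964. With all 19 alpha and beta genes annotated as coding it was 0.905, with TUBB4A as the largest addition, and with pseudogenes added to both sides 0.934.

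**Figure D2:**
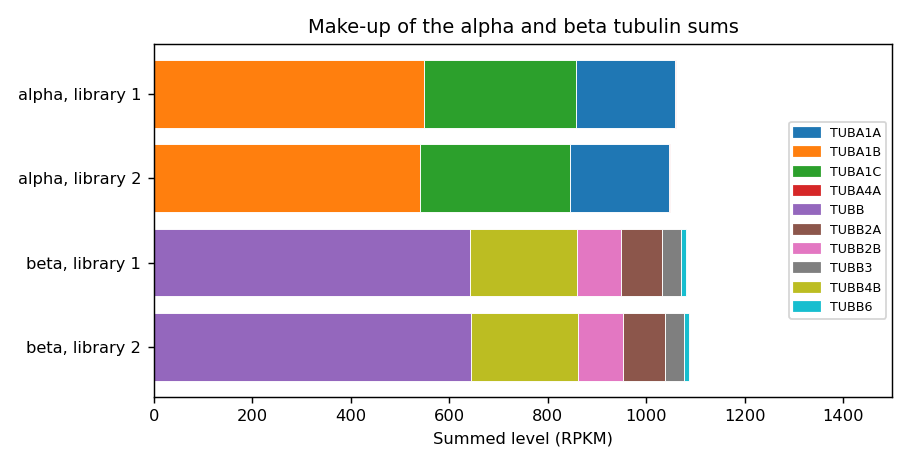
Summed RPKM of the alpha and beta genes in each library, with 1 coloured segment per gene. The 4 bars end between 1047 and 1086 RPKM; TUBA1B and TUBB are the largest segments, and TUBA4A is too small to be seen.

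How firmly each level can be assigned to its gene depends on the sequence shared between the copies. Within the alpha genes, coding sequences were 84.4% to 97.2% identical and proteins 95.8% to 99.6%; within the beta genes the ranges were 80.9% to 98.1% and 90.4% to 99.6%. TUBA1A and TUBA1B proteins differ at 2 residues, and so do TUBB2A and TUBB2B. An alpha and a beta protein were 39.5% to 41.5% identical. Because the read length is not given in the sources used here, sharing was measured with windows of 50 and of 100 bases within exons.

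Coding windows of 50 bases with an exact copy elsewhere in the genome made up 88.7% in TUBB2B, 85.6% in TUBB2A, 77.2% in TUBA1B, 59.2% in TUBA1A and 57.9% in TUBA1C. TUBB had 32.2%, and TUBB4B, TUBB3, TUBA4A and TUBB6 had 13.8%, 13.3%, 9.30% and 1.75%. The remaining windows, which reach into untranslated exon parts, were shared in 13.2% of cases in TUBA1A, 12.3% in TUBB and 5.26% in TUBB4B, in under 2% in TUBA1B and TUBA1C, and in 0% in the other 5 genes. With 100-base windows, TUBB2A and TUBB2B kept 83.9% and 90.4% of coding windows shared, while TUBA1B had 53.2%, TUBA1C 31.4%, TUBA1A 31.2%, TUBB 4.70% and TUBB6 none. Apart from TUBA1B, TUBB2A and TUBB2B, every isotype's coding share was over 1.5 times lower with the longer window. The levels of TUBB2A and TUBB2B, and the split among TUBA1A, TUBA1B and TUBA1C, are thus uncertain as single values. Summed, the TUBB2 pair had 173 and 175 RPKM and the 3 TUBA1 genes 1059 and 1047 RPKM.

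**Figure D3:**
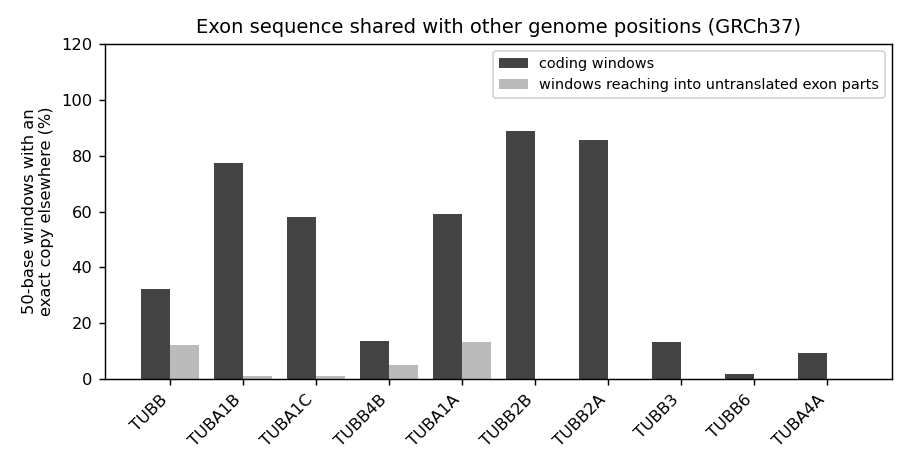
Share of 50-base exon windows with an exact copy elsewhere in GRCh37, in percent, for windows inside the coding sequence (dark) and windows that reach into untranslated parts (light), with genes ordered by level. TUBB2B at 88.7% and TUBB2A at 85.6% stand highest, and TUBB6 lowest at 1.75%.

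Some pseudogenes carried values of the same order as several isotypes. Of 49 alpha and beta tubulin pseudogenes with a row, 9 reached 1 RPKM in both libraries, beside 59.8% of protein-coding genes. At the floor in both libraries stood 37 of the 49. Of all 57158 identifiers, 39548 were at the floor in library 1 and 39542 in library 2. TUBAP2, an intronless copy of an alpha gene, had 163 and 158 RPKM, equal to 6608 and 6433 reads, and shares windows with 24.4% of those of TUBA1B. TUBBP1, an intronless copy of TUBB, had 108 and 109 RPKM and shares 15.4% of the windows of TUBB. TUBB2BP1 had 21.7 and 20.4 RPKM and shares 21.8% of the windows of TUBB2A and 19.9% of those of TUBB2B. TUBA5P had 7.80 and 7.21 RPKM, TUBBP6 4.59 and 4.91, and TUBBP5 2.76 and 2.82. The 3 highest thus share exact stretches with abundant isotypes, and whether their values are reads of their own or of the parent genes was not tested.

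TUBB3 is among the more distinct genes in sequence. Its protein is 91.1% to 91.8% identical to those of the other beta genes among the 10, and 90.9% to that of TUBB4A. Of its 50-base windows, 9.40% are shared with TUBB2A and as many with TUBB2B. The level of TUBB3 has another limit. A gene of the same strand, ENSG00000198211.8, annotated on chromosome 16 from 89985573 to 90002500, covers 92.8% of the exon bases of the canonical TUBB3 transcript and begins upstream in the direction of MC1R, the melanocortin receptor gene. It was listed at 83.8 RPKM in library 1 and 84.5 in library 2, which is 2.14 and 2.11 times the level listed for TUBB3. MC1R itself, also named after its value was seen, had 0.611 and 0.737 RPKM. The sum of both identifiers over TUBB3 was 123 and 124 RPKM, which would hold 10.6% of a beta sum enlarged by the same amount. This sum would take rank 3 among the 6 beta genes, where TUBB3 alone has rank 5. Of the exon bases of ENSG00000198211, 57.1% lie in exons of the canonical TUBB3 transcript. A read counted for both genes would enter the sum more than once, so the sum is not a level of TUBB3. The level printed under the symbol TUBB3 is thus that of 1 of 2 overlapping gene models, and how reads were shared between them is not given in the sources used here.

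**Figure D4:**
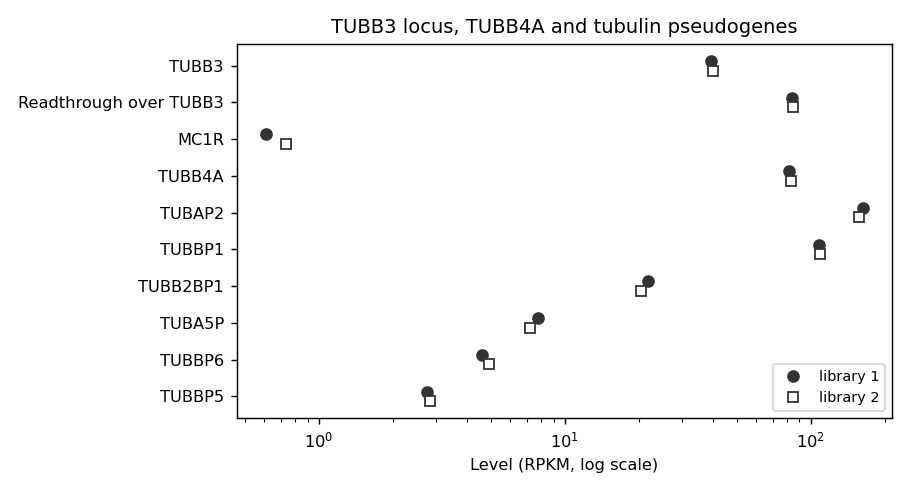
Level in RPKM on a log axis of TUBB3, the overlapping readthrough gene, MC1R, TUBB4A and the 6 highest tubulin pseudogenes, with circles for library 1 and squares for library 2. The readthrough gene lies at 83.8 and 84.5 RPKM, to the right of TUBB3 at 39.2 and 39.98, and MC1R lies below 1.

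Because TUBB3 is used as a neuron marker, other neuron genes were set beside it. Of 19 neuron markers measured, 2 reached 1 RPKM and 16 stood at the floor, beside 59.8% of protein-coding genes at 1 RPKM. With floor genes entered as 0.1, their summed level was 6.23 and 6.07 RPKM, below the 39.2 and 39.98 of TUBB3 alone. Both that reached it were low, the filament protein gene INA at 2.28 and 2.41 RPKM and DCX (doublecortin, a microtubule binding protein of migrating neurons) at 1.68 and 1.49. CHGA, of secretory granules, had 0.666 and 0.575 RPKM. Among those at the floor were the RNA-binding protein genes ELAVL3, ELAVL4 and RBFOX3, the synaptic genes SYP, SNAP25 and SYT1, the proneural factors NEUROD1, NEUROG1 and NEUROG2, and MAP2, STMN2, GAP43, NEFM, TBR1 and SLC17A6. Of 10 neural progenitor markers, NES at 15.9 and 15.5 RPKM was the only one at 1 RPKM in both libraries, OTX2 had 1.31 and 0.956, and the other 8, among them SOX1, SOX2 and PAX6, were at the floor. RNA was pooled over the culture, so these levels do not tell a low level in many cells from a high level in few, and the part of other cell types in the TUBB3 level was not tested.

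Of microtubule binding proteins best known from neurons, 7 of 15 reached 1 RPKM, beside 59.8% of protein-coding genes, and 7 were at the floor, with a median of 0.843 RPKM. DPYSL3, of the collapsin response mediator family, led at 25.6 and 25.7 RPKM. STMN3, a stathmin, had 8.89 and 8.82, MAP1B 6.58 and 6.80, and the kinesin heavy chain KIF5C 5.52 and 5.88. MAP2, MAPT (tau) and STMN2 were at the floor. MAP2, STMN2 and DCX are also among the neuron markers above, so the counts of these lists overlap. Of binding proteins of wider distribution, 15 of 16 reached 1 RPKM, beside the same 59.8%, with a median of 12.3. STMN1, which sequesters free dimers, had 39.2 and 39.7 RPKM, the dynein heavy chain DYNC1H1 39.2 and 39.3, the plus-end protein MAPRE1 38.3 and 39.1 and the polymerase CKAP5 30.9 and 30.5.

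Of the 11 other tubulins measured, 6 reached 1 RPKM, a share near the 59.8% of protein-coding genes, and 5 were at the floor. All 5 at the floor were alpha or beta genes, and of those classes only TUBB4A and TUBA8 among the 11 reached 1 RPKM. The highest was TUBB4A, the class IVa isotype known from neurons and oligodendrocytes, at 81.8 and 83.3 RPKM, a level near that of TUBB2A. Its protein is 98.4% identical to that of TUBB4B, but only 13.2% of its 50-base coding windows, and none of 100 bases, have an exact copy elsewhere. Gamma tubulin, which seeds microtubules, was represented by TUBG1 at 32.0 and 30.6 RPKM and TUBG2 at 12.8 and 13.01. The centriolar tubulins TUBD1 and TUBE1 had 3.21 and 3.41 and 1.06 and 1.13 RPKM, and TUBA8 had 2.12 and 2.18. TUBB1, the beta isotype of platelets, was at the floor, as were all 6 platelet and megakaryocyte markers, and so were TUBAL3, TUBA3C, TUBA3D and TUBA3E.

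New tubulin chains are folded in steps, and the measured genes of that route all reached 1 RPKM, beside 59.8% of protein-coding genes. Prefoldin carries the chain to the ring-shaped chaperonin CCT, and tubulin cofactors then assemble the dimer. All 8 CCT subunits reached 1 RPKM, between 30.7 (TCP1) and 67.6 (CCT3), and CCT4 had 67.3 RPKM in both libraries, CCT7 65.5 and 67.0 and CCT8 50.5 and 51.2. All 6 prefoldin subunits did, led by PFDN5 at 35.5 and 36.0, PFDN2 at 33.7 and 32.96, PFDN1 at 17.8 and 17.9 and VBP1 at 11.6 and 11.2 RPKM. All 6 cofactor genes measured did too, with TBCA, which binds beta tubulin, at 29.7 and 29.3, the small GTPase ARL2 at 27.3 and 30.1, TBCB, which binds alpha tubulin, at 13.1 and 13.4, and TBCD at 10.1 and 9.89 RPKM. In the decay route, the nascent chain sensor TTC5 had 1.29 and 0.966 RPKM, SCAPER 1.68 and 1.81 and the deadenylase subunit CNOT11 17.3 and 18.4.

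**Figure D5:**
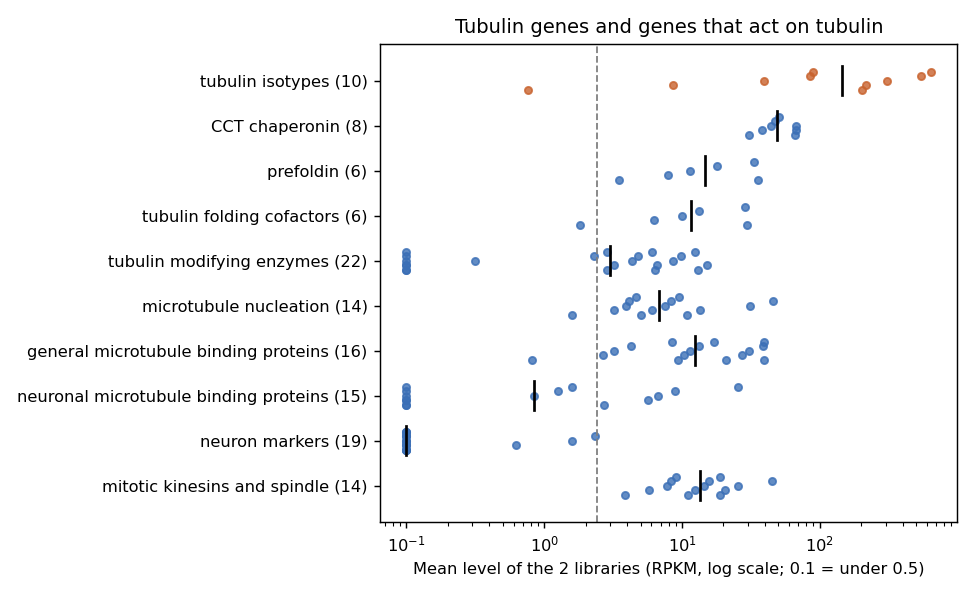
Mean RPKM of the 2 libraries on a log axis, 1 point per gene, for the tubulin isotypes (orange) and lists of related genes (blue), with the number of genes in brackets and black bars at list medians. The dashed line is the protein-coding median, and values at 0.1 stand for under 0.5 RPKM; 16 of 19 neuron markers lie there, and no CCT subunit lies below 30.7.

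Of 22 tubulin modifying enzymes, 14 reached 1 RPKM, a share near the 59.8% of protein-coding genes, and 7 were at the floor, with a median of 3.02 RPKM. TTLL12, a member of the tyrosine ligase-like family, was highest at 14.9 and 15.7 RPKM, followed by the acetyltransferase ATAT1 at 13.2 and 12.8, the deglutamylase AGBL5 at 12.03 and 12.7 and SVBP, the partner of the tyrosine carboxypeptidases, at 9.19 and 10.3. TTL, the ligase that restores the C-terminal tyrosine of alpha tubulin, had 6.77 and 6.35 RPKM and the carboxypeptidase VASH1 5.88 and 6.20; these 2 were named after their values were seen. TTLL6, TTLL7 and TTLL9, which add glutamates to tubulin tails or belong to that family, were at the floor.

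Genes of nucleation and of the spindle, where dividing cells use tubulin, reached 1 RPKM throughout both lists, beside 59.8% of protein-coding genes. Of the nucleation list 14 of 14 reached it, with a median of 6.84 RPKM, led by MZT2B at 46.5 and 45.1, TUBG1, MZT2A at 13.6 in both libraries and TUBGCP2 at 10.7 and 11.2. Of the mitotic list 14 of 14 did, with a median of 13.4 RPKM. The spindle assembly factor TPX2 had 44.9 and 45.8 RPKM, NUSAP1 25.2 and 25.9, and the kinesins KIF20A and KIF22 20.9 and 20.2 and 19.4 and 18.6.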

How the data were processed

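The authors deposited 1 table of RPKM values per gene identifier and library, which are reads scaled to gene length and depth, per the file headers. The series text names hg19 and Sailfish, and per the submitters' processing notes FastQC 0.10.1, STAR 2.3.0e and Cufflinks 2.2.0 were used, with no step given. Strand was marked with dUTP after isolation of mRNA on beads, per the labels' protocols. For the annotation release and the counting of reads with several matches, the rule is not given in the sources used here. Of all values, 0 lay between 0.1 and 0.5.

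Identifiers were joined without version to GENCODE release 44 on GRCh37 (hg19), with a match for 95.2%. Protein-coding genes are 19344 symbols, with the identifier of highest mean for each. Detection means 1 RPKM or more in both libraries. Depth was read from single-exon genes, whose values move in steps of 1 read: 82.3% in library 1 and 82.1% in library 2 were whole reads within 0.02 once gene length was taken as end minus start. Window searches and the depth estimate were tested on simulated data. Python 3.11.15, numba 0.67.0 and Biopython 1.88 were used. With 1 group no test between groups was made. The members, lists and naming rule were chosen with earlier results of these data known. Named genes are all members, the other tubulins, genes that overlap on the same strand, the 6 highest pseudogenes, up to 4 highest and 3 floor members of each other list, and the liver progenitor and neuron markers. TUBB8, TBCE, TUBGCP5, NEFL and CCDC39 were not matched and have no value here. Protein sequences are not printed, and some list members and coding tails are not reported here.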

Additional observations from a re-analysis of the deposited data

How the results depend on the processing

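No paired analysis was possible because the series has 1 group. Of 27 alternatives, 14 left the result within 1.5 times (counts) or 1 standard deviation between libraries, but with 2 libraries the omission of 1 cannot move a mean level, ratio or share past that deviation, so those omissions say nothing about stability. At limits of 0.5, 5 and 10 RPKM, 10, 9 and 8 of the 10 isotypes were detected, beside 65.1%, 35.4% and 20.2% of protein-coding genes. Neuron markers fell from 2 to 0 at a limit of 5 RPKM. Rescaled to the fixed total of TPM, the median isotype level of 145 RPKM became 381 over all genes, 598 over protein-coding genes and 731 without mitochondrial ones. The median isotype stood at percentile 98.9 of protein-coding genes and at 98.2 of detected ones. It lay 5.30 above the protein-coding median on the log2(RPKM + 1) scale, and 5.73 and 5.78 above with pseudocounts of 0.1 and 0.01. The alpha to beta ratio of 0.973 became 0.905 with all coding tubulin genes, 0.934 with pseudogenes too and 0.902 with the readthrough gene in the beta sum, an alternative chosen after seeing the data. The TUBB3 share of 3.66% became 10.6% with the readthrough gene, 3.22% with beta pseudogenes in the denominator and 3.40% over all beta genes, the last also chosen after seeing the data. The limit of 5 RPKM, the rescalings and the readthrough gene in the TUBB3 share moved a value by over 1.5 times. A gene listed at the floor may have had any level under 0.5 RPKM.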

Other observations

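In cilia, tubulin forms the axoneme. Of 15 cilium genes measured, 10 reached 1 RPKM, a share near the 59.8% of protein-coding genes, and 5 were at the floor. The transport genes IFT52 (7.03 and 7.42 RPKM), IFT140 (6.72 and 6.47) and IFT20 (5.61 and 5.72) and the BBSome subunit BBS4 (4.34 and 4.23) were the highest, while genes of motile cilia, DNAH5, DNAH9 and DNAI1, were at the floor. FOXJ1, the factor that drives motile cilium genes, had 2.27 and 1.82 RPKM, and was named after its value was seen. Of the microtubule severing genes 6 of 7 reached 1 RPKM, among them the katanin subunit KATNA1 (4.55 and 4.05), FIGN (3.89 and 4.003) and SPAST (4.07 and 3.55), with KATNAL2 at the floor.

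Markers of mesenchyme, another cell type, reached 1 RPKM in 4 of 8 cases, beside 59.8% of protein-coding genes. With floor genes entered as 0.1, the summed level of these markers was 19.3 and 19.6 RPKM. COL1A1 had 8.29 and 8.30 RPKM, COL1A2 5.18 and 5.09, LUM 3.39 and 3.16 and PDGFRB 2.06 and 2.22, while COL3A1, DCN and TWIST1 were at the floor. Their part in the levels of TUBB6, TUBB3 or other isotypes was not tested.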
